A study of Mus musculus with 12 samples.

Results

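The genes described here are 10 effectors and readouts of canonical Wnt signalling, chosen by their symbols: Ctnnb1, the TCF factors Tcf7l1, Tcf7 and Lef1, the feedback inhibitors Axin2, Nkd1 and Dkk1, and the target transcription factors T, Cdx1 and Sp5. All 10 were found among the 54446 genes listed for each library. A test was run on the 15727 genes whose mean reached 1 TPM, which took in 9 of the 10 and left out Dkk1, at a mean of 0.229 TPM. TPM counts the reads of a gene per transcript length and scales them to a fixed total in each library, so levels can be compared between genes but the read depth is unknown. Levels are therefore shares of each library's RNA, "rose" and "fell" below refer to shares, and RNA per cell was not analysed here.

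RNA depleted of ribosomal RNA was sequenced from mouse embryonic stem (ES) cells under inhibition of the mTOR kinase with INK128 (mTORi), which brings them into a dormant state resembling embryonic diapause. The 12 libraries form 6 groups of 2, namely untreated controls (0 h) and cells after 72 and 144 h of mTORi, for each of 2 lines. KH cells are wild type, DNMT3ABKO cells are without Dnmt3a and Dnmt3b, the enzymes that methylate DNA de novo, and each genotype is represented by 1 line. The labels prefix both line names with E14, but in the study's methods the wild-type partner of the Dnmt3a/b knockout is called KH2, and both are kept on feeders, a layer of inactivated fibroblasts, and sorted as viable cells before extraction. Untreated cells of the later time points are not analysed here, so mTORi and time in culture cannot be told apart. The study's methods speak of experiments repeated independently, with matching time points of a replicate processed in parallel. The labels do not say what a replicate number marks, and p-values measure only the spread between these libraries.

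In canonical Wnt signalling, a Wnt ligand binds a Frizzled receptor and an Lrp co-receptor, the complex that degrades beta-catenin is inactivated, and beta-catenin enters the nucleus and binds TCF factors on DNA. Without beta-catenin, TCF factors recruit corepressors of the Groucho/TLE family. In mouse ES cells Tcf7l1 is the most abundant TCF factor and acts mainly as a repressor of pluripotency genes, while Lef1 and Tcf7 act mainly as activators, and Wnt signalling supports self-renewal as well as, in other contexts, primitive streak fate.

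The sequences just before the start of 3 target genes are shown because Axin2, T and Sp5 are read as Wnt targets and yet moved in different ways under mTORi. Sequences come from RefSeq (GRCm38.p6) and hold the 250 bases before the start of transcription on the plus strand, from chr17:8434173-8434422 for T, chr2:70474673-70474922 for Sp5 and chr11:108920099-108920348 for Axin2. Capitals mark matches to the TCF motif, searched on both strands as CTTTGAA, then as CTTTGAT, as CTTTGTA and as CTTTGTT.
T: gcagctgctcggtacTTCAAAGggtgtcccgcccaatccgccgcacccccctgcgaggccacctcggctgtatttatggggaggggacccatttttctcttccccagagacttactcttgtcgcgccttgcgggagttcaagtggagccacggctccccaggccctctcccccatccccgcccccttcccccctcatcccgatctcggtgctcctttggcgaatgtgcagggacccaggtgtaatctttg
Sp5: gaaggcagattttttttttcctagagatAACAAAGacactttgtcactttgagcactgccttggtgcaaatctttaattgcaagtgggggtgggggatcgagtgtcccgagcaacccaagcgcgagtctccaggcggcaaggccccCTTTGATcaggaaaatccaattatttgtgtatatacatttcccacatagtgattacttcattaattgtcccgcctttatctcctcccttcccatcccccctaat
Axin2: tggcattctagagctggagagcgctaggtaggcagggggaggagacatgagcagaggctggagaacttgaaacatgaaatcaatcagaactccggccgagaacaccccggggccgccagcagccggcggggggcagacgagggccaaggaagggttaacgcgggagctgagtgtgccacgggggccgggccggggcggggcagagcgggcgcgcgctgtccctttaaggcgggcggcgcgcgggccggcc
The T window held 1 match, starting 235 bases before the start site. The Sp5 window held 2, starting 222 and 104 bases before it, and the Axin2 window held none of these letters. Sites outside the windows, or with other letters, were not searched for. Windows were found for 9 of the 10 genes, Cdx1 not being searched, and 4 of their 14 windows held a match, those of T, Sp5 and Dkk1 and 1 of the 4 of Lef1. Over all genes, 4874 of 32851 such windows (14.8%) held one. CpG dinucleotides, the sites that DNA methyltransferases act on, numbered 24 in the Axin2 window, 14 in that of T and 6 in that of Sp5, against a median of 6 over all windows.

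The line labels were checked on the targeted genes, and the cells on their markers. At 0 h, Dnmt3a stood at 56.2 ± 2.14 TPM (SD, n = 2) in KH and 9.45 ± 2.97 TPM in DNMT3ABKO cells, and Dnmt3b at 256.5 ± 2.53 and 26.9 ± 0.966 TPM, with no overlap at any time point. The 12 ES cell markers summed to 4754 to 5078 TPM at 0 h, 6796 to 7075 TPM at 72 h and 7229 to 7393 TPM at 144 h. The 20 fibroblast markers summed to 2539 to 3007, 983 to 1257 and 398 to 630 TPM, and none of them was listed at 0 in any library. The 10 macrophage markers summed to 209 to 264, 110 to 165 and 20.7 to 36.3 TPM, with Aif1 listed at 0 in all 4 libraries at 144 h. These shares moved with time in both lines and so with every change over time given below. In bulk RNA, fewer cells of a type and less RNA per cell cannot be told apart, and the part of these shifts in the results was not tested.

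**Figure D1:**
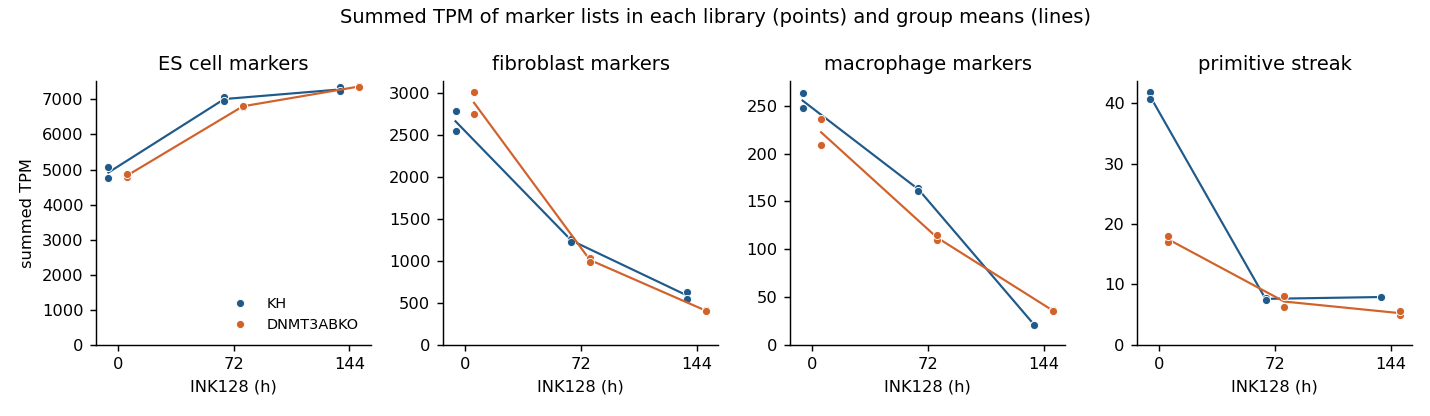
Summed TPM of ES cell, fibroblast, macrophage and primitive streak markers (y axes, TPM, each from 0) against hours of INK128 in KH (blue) and DNMT3ABKO (orange) libraries; points are libraries and lines join group means. ES cell markers lay between 4754 and 5078 TPM at 0 h and between 7229 and 7393 TPM at 144 h, while fibroblast markers went from 2539 to 3007 TPM down to 398 to 630 TPM.

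Among the 10 genes, transcripts of Ctnnb1 were the most abundant in every group and those of Dkk1 the least. At 0 h in KH cells the order of mean levels was Ctnnb1 (302 TPM), Tcf7l1 (66.4), Tcf7 (23.3), T (18.5), Lef1 (10.8), Axin2 (10.2), Cdx1 (4.89), Sp5 (4.18), Nkd1 (0.916) and Dkk1 (0.287). Lef1 and Axin2 overlapped between libraries in that order. At 72 h in DNMT3ABKO cells the order was Ctnnb1 (350.1 TPM), Tcf7l1 (37.4), Tcf7 (32.8), Lef1 (30.5), Axin2 (29.3), Cdx1 (7.40), Sp5 (5.01), Nkd1 (1.30), T (0.669) and Dkk1 (0.0655), and Lef1 and Axin2 overlapped again. In that line T had been the sixth at 0 h (6.41 TPM), and Lef1 had stood at 7.78 TPM beside 63.2 TPM for Tcf7l1.

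**Figure D2:**
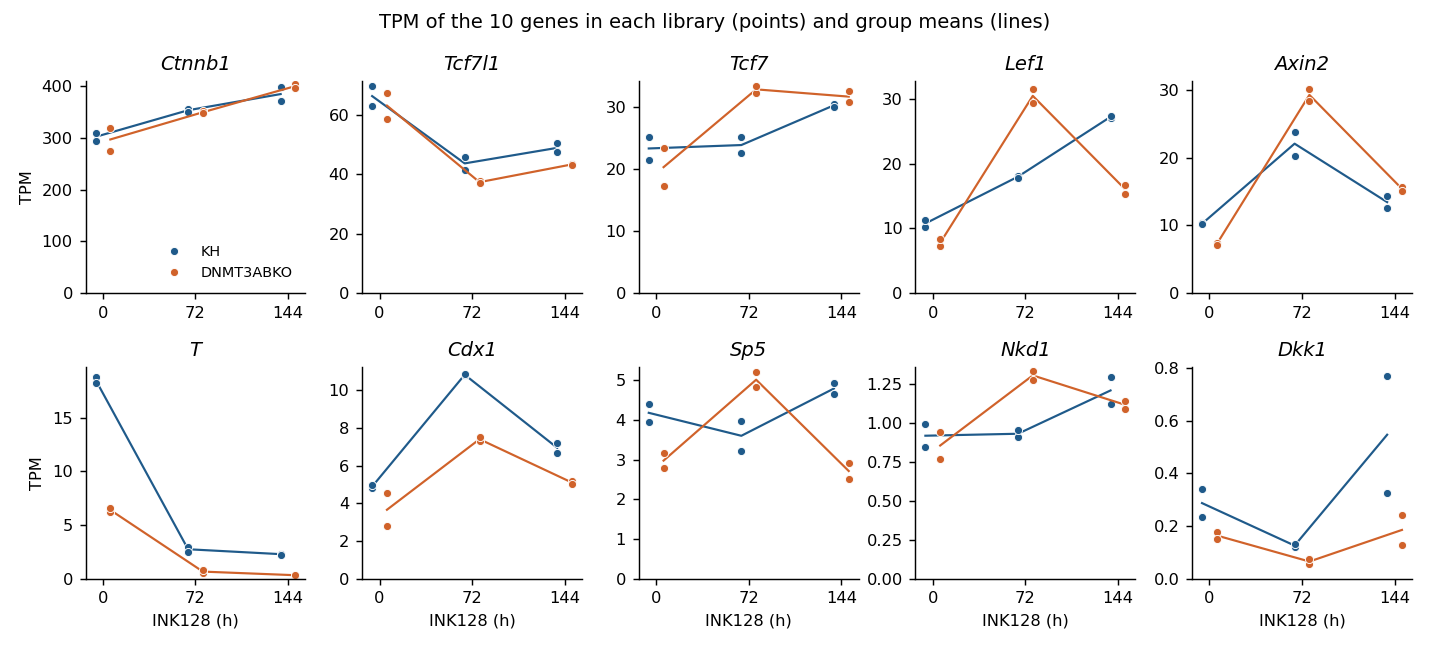
TPM (y axes, from 0, a scale of its own for each gene) of the 10 genes against hours of INK128 in KH (blue) and DNMT3ABKO (orange) libraries; points are libraries and lines join group means. Axin2 and Cdx1 peaked at 72 h in both lines, Lef1 peaked at 72 h in DNMT3ABKO (30.5 TPM) but at 144 h in KH cells (27.2 TPM), and T was lowest at 144 h.

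After 72 h of mTORi, 6 of the 9 tested genes differed from 0 h in KH cells, 4 higher and 2 lower, against 47.8% of all genes tested (called at an adjusted p under 0.05, limma on log2(TPM + 1)). After 144 h, 7 differed, 5 higher and 2 lower, against 51.3% of all genes. In DNMT3ABKO cells all 9 differed at 72 h, 7 higher and 2 lower, against 56.0% of all genes, and 7 at 144 h, 5 higher and 2 lower, against 57.6%. The 2 lower genes were T and Tcf7l1 in each of these 4 comparisons. The median log2 fold change of the 9 genes was 0.03 (72 h) and 0.35 (144 h) in KH cells, and 0.60 and 0.41 in the knockout line, against medians of 0.08, 0.05, 0.12 and 0.05 over all genes. These fold changes understate changes of low genes, since 1 TPM was added to each value. Comparisons with the same 0 h libraries share them as controls. The genes were chosen with earlier results of these data known, so counts beside the shares of all genes are a description only.

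Ctnnb1 encodes beta-catenin, the transcriptional effector of the pathway (ENSMUSG00000006932.17, mm10 chromosome 9, 120929216 to 120960507). In KH cells its libraries stood at 295 and 309.8 TPM at 0 h, 356.8 and 351.1 TPM at 72 h, and 398.5 and 372 TPM at 144 h. In DNMT3ABKO cells they stood at 274.5 and 320.3, 351.7 and 348.5, and 404 and 397.5 TPM. Treated libraries lay above the untreated ones of their line throughout, and the lines overlapped at each time point. At 144 h Ctnnb1 was higher than at 0 h by 0.35 ± 0.08 (log2, SE; limma adjusted p = 0.0035) in KH and by 0.43 ± 0.08 (adjusted p = 0.00076) in DNMT3ABKO cells. At 72 h the differences of 0.23 and 0.24 passed narrowly (limma adjusted p = 0.032 and 0.022). The KH call was lost when any of the 4 libraries compared was left out (0.19 to 0.26, limma adjusted p = 0.055 to 0.14), and the DNMT3ABKO call without replicate 1 at 0 h (0.13) or either replicate at 72 h (0.23 and 0.25, limma adjusted p = 0.078 to 0.097). Rescaling by median ratios brought the values to 0.12 in KH and 0.10 in DNMT3ABKO cells, and neither then passed (limma adjusted p = 0.078 and 0.11). The KH call was also lost with no filter on low values (limma adjusted p = 0.070) and with a replicate block within each line (0.054), and that of DNMT3ABKO cells with only the compared groups fitted (0.14). ES cell markers moved by a median of 0.36 to 0.62 in these 4 comparisons, and the part of that shift in the Ctnnb1 values was not tested. No difference between the lines was called for Ctnnb1 at any time point, with intervals of -0.20 to 0.14, -0.19 to 0.15 and -0.11 to 0.23 (log2, 95% limma).

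Tcf7l1, the repressive TCF factor (ENSMUSG00000055799.13, chromosome 6, 72626378 to 72789254), fell in both lines. Its level in KH cells was 63.0 and 69.9 TPM at 0 h, 46.1 and 41.4 TPM at 72 h, and 50.5 and 47.5 TPM at 144 h. In DNMT3ABKO cells it was 58.8 and 67.6, 37.8 and 37.0, and 43.6 and 43.2 TPM. Each untreated library lay above all treated libraries of its line, and values at 144 h lay above those at 72 h. The log2 differences from 0 h were -0.59 ± 0.09 at 72 h and -0.43 ± 0.09 at 144 h in KH cells (limma adjusted p = 0.00044 and 0.0023), and -0.74 ± 0.09 and -0.53 ± 0.09 in DNMT3ABKO cells (limma adjusted p = 7.1e-05 and 0.00052). Neither response differed between the lines past the threshold, by -0.15 at 72 h (interval -0.42 to 0.13) and -0.10 at 144 h (-0.37 to 0.18).

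Lef1, a TCF factor that is itself a Wnt target (ENSMUSG00000027985.14, chromosome 3, 131110471 to 131224356), showed the largest difference between lines among the 9 genes in the 72 h response. In KH cells its libraries stood at 10.2 and 11.3 TPM at 0 h, 18.1 and 17.8 TPM at 72 h, and 27.1 and 27.4 TPM at 144 h. In DNMT3ABKO cells they stood at 7.26 and 8.29 TPM at 0 h, 31.6 and 29.4 TPM at 72 h, and 15.3 and 16.8 TPM at 144 h. Lef1 thus rose at each step in KH cells, whereas in DNMT3ABKO cells it rose and then fell back, staying above 0 h, with no overlap between time points in either line. The rise to 72 h was 0.69 ± 0.09 in KH and 1.84 ± 0.09 in DNMT3ABKO cells (log2; limma adjusted p = 0.00019 and 2.6e-07). The difference between these responses was 1.15 ± 0.13 (limma adjusted p = 0.00097), against 5.23% of all genes called in that comparison. From 72 to 144 h Lef1 rose by 0.57 in KH and fell by 0.89 in DNMT3ABKO cells (limma adjusted p = 0.0015 and 6.1e-05). By 144 h it was 1.26 and 0.96 above 0 h, and the responses differed by -0.31 ± 0.13, which did not pass (limma adjusted p = 0.18).

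Tcf7, which encodes the TCF factor TCF1 (ENSMUSG00000000782.15, chromosome 11, 52252371 to 52283014), rose in DNMT3ABKO cells at both time points. Its libraries stood at 21.5 and 25.1 TPM at 0 h, 25.1 and 22.6 TPM at 72 h, and 30.5 and 30.0 TPM at 144 h in KH cells. In DNMT3ABKO cells they stood at 17.2 and 23.4, 32.3 and 33.4, and 30.8 and 32.5 TPM. The 0 and 72 h libraries overlapped in KH but not in DNMT3ABKO cells. In DNMT3ABKO cells Tcf7 rose by 0.68 ± 0.13 at 72 h and 0.63 ± 0.13 at 144 h (limma adjusted p = 0.0013 and 0.0018). In KH cells the value at 72 h was 0.03, and the rise of 0.37 at 144 h (limma adjusted p = 0.035) was lost without replicate 1 at 0 h (0.26, limma adjusted p = 0.20) or without either replicate at 144 h (0.36 and 0.38). Between the lines, the 72 h response of Tcf7 differed by 0.65 ± 0.18 (limma adjusted p = 0.074). Axin2, Lef1, Tcf7, Tcf7l1 and Ctnnb1 each overlap an antisense gene in GENCODE M21, and since no strand setting is stated for the quantification, reads of either partner cannot be told apart.

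Tcf7l2, the fourth TCF factor of mammals, was called over time in neither line but was lower in DNMT3ABKO cells throughout. Its means were 11.2, 10.9 and 9.73 TPM at 0, 72 and 144 h in KH and 6.21, 6.01 and 4.95 TPM in DNMT3ABKO cells. The log2 differences between lines were -0.77, -0.77 and -0.85 ± 0.12 (limma adjusted p = 0.0031, 0.0016 and 0.00063), and no library of one line overlapped the other at the same time point.

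Axin2, a scaffold of the destruction complex that is induced by Wnt signalling and damps it (ENSMUSG00000000142.15, chromosome 11, 108920349 to 108950783), peaked at 72 h in both lines. Its libraries stood at 10.3 and 10.2 TPM at 0 h, 23.8 and 20.3 TPM at 72 h, and 14.4 and 12.5 TPM at 144 h in KH cells. In DNMT3ABKO cells they stood at 7.46 and 7.05, 28.4 and 30.1, and 15.7 and 15.1 TPM. DNMT3ABKO libraries thus lay below KH at 0 h and above it at both later time points. At 144 h the difference between lines was not called (0.19, log2; limma adjusted p = 0.19). The ratio of mean TPM at 72 h to 0 h was 2.15 in KH and 4.03 in DNMT3ABKO cells. On the log2 scale the rise to 72 h was 1.03 ± 0.10 and 1.87 ± 0.10 (limma adjusted p = 2.9e-05 and 4e-07), and the fall from 72 to 144 h was -0.67 and -0.88 (limma adjusted p = 0.00094 and 0.00011). At 144 h Axin2 remained 0.99 ± 0.10 above 0 h in DNMT3ABKO cells (limma adjusted p = 1.4e-05). In KH cells it was 0.36 ± 0.10 above (limma adjusted p = 0.011), a call lost without KH replicate 1 at 144 h (0.26, limma adjusted p = 0.099).

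The responses of Axin2 differed between lines by 0.84 ± 0.14 at 72 h and by 0.63 ± 0.14 at 144 h (limma adjusted p = 0.0074 and 0.019). At 144 h Axin2 was the only one of the 9 genes with a called difference in response, against 8.59% of all genes. That call was lost without KH replicate 1 or 2 at 0 h, KH replicate 2 at 144 h, or DNMT3ABKO replicate 1 or 2 at 144 h (0.54 to 0.66, limma adjusted p = 0.050 to 0.077). The call at 72 h was kept without any library and lost only with weights for each library (limma adjusted p = 0.052).

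Nkd1, an inhibitor of Dishevelled induced by Wnt signalling (ENSMUSG00000031661.12, chromosome 8, 88521354 to 88594884), was near 1 TPM throughout. It stood at 0.989 and 0.844, 0.907 and 0.950, and 1.12 and 1.29 TPM at 0, 72 and 144 h in KH cells, and at 0.764 and 0.943, 1.33 and 1.27, and 1.14 and 1.09 TPM in DNMT3ABKO cells. The only call was the rise of 0.31 ± 0.11 at 72 h in DNMT3ABKO cells (limma adjusted p = 0.031), which was lost under 7 of 11 alternatives. Among these were the fits without replicate 1 at 0 h (0.24) or either replicate at 72 h (0.30 and 0.33). The others were median-ratio rescaling, only the compared groups fitted, a replicate block within each line, and array weights. Dkk1, a secreted antagonist of the Lrp co-receptors (ENSMUSG00000024868.8, chromosome 19, 30545863 to 30549665), stood at 0.235 and 0.340, 0.121 and 0.131, and 0.769 and 0.324 TPM in KH cells. In DNMT3ABKO cells it stood at 0.178 and 0.150, 0.0561 and 0.0750, and 0.244 and 0.127 TPM. In both lines the 72 h libraries of Dkk1 were the lowest, and its replicates at 144 h were far apart. Tested without the filter on low values, Dkk1 was called in none of the 11 comparisons (smallest limma adjusted p = 0.066, KH 144 h against 72 h).

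T, the Brachyury transcription factor of the primitive streak (ENSMUSG00000062327.10, chromosome 17, 8434423 to 8442496), fell the most of the 9 genes and differed the most between lines at each time point. Its libraries stood at 18.8 and 18.3 TPM at 0 h, 2.97 and 2.53 TPM at 72 h, and 2.34 and 2.25 TPM at 144 h in KH cells. In DNMT3ABKO cells they stood at 6.22 and 6.59, 0.512 and 0.825, and 0.282 and 0.382 TPM. Every DNMT3ABKO library lay below both KH libraries of its time point, and every treated library below both untreated ones of its line. The mean at 72 h was 0.148 of that at 0 h in KH and 0.104 in DNMT3ABKO cells, and at 144 h 0.124 and 0.0518. On the log2(TPM + 1) scale T fell by 2.38 and 2.57 ± 0.12 at 72 and 144 h in KH (limma adjusted p = 6.9e-07 and 1.2e-07) and by 2.16 and 2.48 ± 0.12 in DNMT3ABKO cells (limma adjusted p = 5.2e-07 and 7.2e-08). The direction of the difference between lines in these responses turned with the value added to TPM. It was 0.23 at 72 h and 0.09 at 144 h with 1 TPM added (limma adjusted p = 0.53 and 0.79), and -0.40 and -0.96 with 0.1 TPM added (limma adjusted p = 0.55 and 0.076).

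Cdx1, a caudal homeobox factor of the posterior body axis (ENSMUSG00000024619.8, chromosome 18, 61018862 to 61036199), was highest at 72 h in both lines. It stood at 4.81 and 4.97, 10.8 and 10.8, and 6.69 and 7.19 TPM at 0, 72 and 144 h in KH cells, and at 2.77 and 4.55, 7.30 and 7.50, and 5.17 and 5.03 TPM in DNMT3ABKO cells. No time points overlapped within a line. The rise to 72 h was 1.01 ± 0.15 in KH and 0.88 ± 0.15 in DNMT3ABKO cells (limma adjusted p = 0.00045 and 0.00073), and these responses differed by -0.13, with an interval of -0.60 to 0.34. The later Cdx1 calls were narrow. From 0 to 144 h the rise was 0.43 in KH and 0.41 in DNMT3ABKO cells (limma adjusted p = 0.034 and 0.036), and from 72 to 144 h the fall was -0.57 and -0.46 (limma adjusted p = 0.021 and 0.044). They were lost whenever a library of their comparison was left out, except that DNMT3ABKO 144 h against 0 h was kept without replicate 2 at 0 h. Without replicate 1 at 0 h that rise was 0.14 (limma adjusted p = 0.24), and the others stayed within 0.39 to 0.48 and -0.62 to -0.45 (limma adjusted p = 0.068 to 0.16).

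Sp5, a zinc finger repressor and direct Wnt target in ES cells (ENSMUSG00000075304.2, chromosome 2, 70474923 to 70477729), was called in DNMT3ABKO cells and not in KH cells. It stood at 3.95 and 4.40, 3.97 and 3.22, and 4.66 and 4.92 TPM at 0, 72 and 144 h in KH cells, where the 0 and 72 h libraries overlapped. In DNMT3ABKO cells it stood at 3.16 and 2.79, 5.20 and 4.82, and 2.93 and 2.50 TPM, with 72 h above both other time points. It rose by 0.60 ± 0.12 at 72 h (limma adjusted p = 0.0017) and fell by 0.70 ± 0.12 from 72 to 144 h (limma adjusted p = 0.0016) in this line, against -0.17 and 0.34 in KH cells (limma adjusted p = 0.24 and 0.065). The 72 h responses differed by 0.77 ± 0.16 (limma adjusted p = 0.025). The call was lost without KH replicate 1 or 2 at 0 h, KH replicate 2 at 72 h, or DNMT3ABKO replicate 1 or 2 at 72 h (0.65 to 0.84, limma adjusted p = 0.051 to 0.11).

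**Figure D3:**
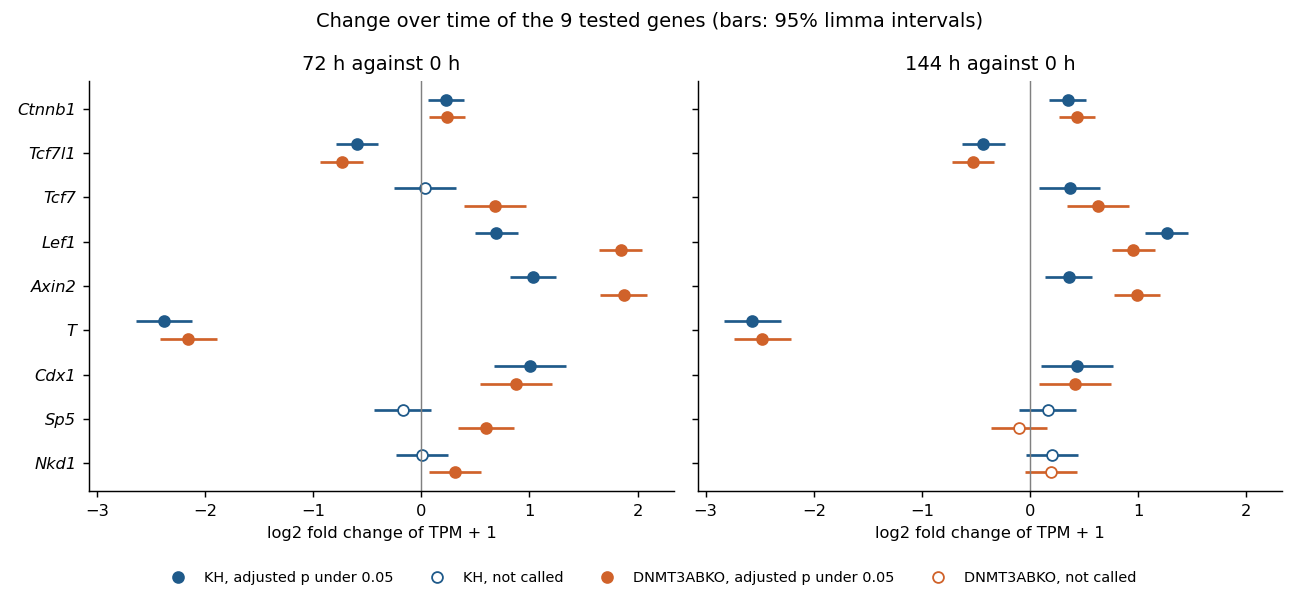
Log2 fold change of TPM + 1 from 0 h (x axes) for the 9 tested genes (rows) at 72 h (left) and 144 h (right) in KH (blue) and DNMT3ABKO (orange) cells; bars are 95% limma intervals and filled points passed an adjusted p under 0.05. T lay at -2.57 to -2.16 and Tcf7l1 at -0.74 to -0.43, while Lef1 and Axin2 at 72 h stood at 0.69 and 1.03 in KH and 1.84 and 1.87 in DNMT3ABKO cells.

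Between 72 and 144 h, 3 of the 9 genes differed in KH cells, against 22.9% of all genes, Axin2 and Cdx1 being lower and Lef1 higher. In DNMT3ABKO cells 4 differed, against 27.3% of all genes, and Axin2, Cdx1, Lef1 and Sp5 were all lower. For T the value was -0.32 in DNMT3ABKO cells (limma adjusted p = 0.069), and it passed without replicate 1 at 72 h (-0.46, limma adjusted p = 0.043) or with 0.1 TPM added (-0.81, limma adjusted p = 0.016). The KH count rose to 5 without either DNMT3ABKO library at 0 h.

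Untreated DNMT3ABKO cells had lower levels of 3 of the 9 genes than untreated KH cells, against 9.06% of all genes. T was lower by -1.40 ± 0.12 (limma adjusted p = 5.1e-05), a call that each alternative kept. Axin2 was lower by -0.45 ± 0.10 and Lef1 by -0.42 ± 0.09 (limma adjusted p = 0.019 and 0.017). The Axin2 call was lost without KH replicate 1 (-0.44) or 2 (-0.45), and the Lef1 call without KH replicate 2 (-0.35) or DNMT3ABKO replicate 1 (-0.34, limma adjusted p = 0.052). Both were lost when only these 4 libraries were fitted (limma adjusted p = 0.29 and 0.36). The 2 DNMT3ABKO libraries at 0 h were the least alike of any pair (r = 0.985 over genes, against at least 0.9935), and the count of called genes went to 1 without KH replicate 2 and to 5 without DNMT3ABKO replicate 2. Markers of other cells also differed between the lines at 0 h, with 3 of 5 tested trophoblast markers lower (median -0.87; sums of 61.8 and 75.9 TPM against 106 and 123 TPM in KH cells), 1 of 9 macrophage markers lower (-0.21) and 4 of 18 fibroblast markers higher (0.20) in DNMT3ABKO cells. Among 6 neural markers 2 were higher and 1 lower (0.17), with sums of 124 and 138 TPM against 92.1 and 99.6 TPM in KH cells. No ES cell or primitive endoderm marker was called between the lines at 0 h. The part of marker differences in these results and in those below was not tested.

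At 72 h, 6 of the 9 genes differed between lines, against 19.3% of all genes. Lef1 was higher in DNMT3ABKO cells by 0.73 ± 0.09 (limma adjusted p = 0.00035) and T lower by -1.17 ± 0.12 (limma adjusted p = 7.9e-05). Axin2 (0.40), Tcf7 (0.45) and Sp5 (0.39) were higher and Cdx1 (-0.49) lower, with limma adjusted p between 0.018 and 0.044. Calls of Tcf7, Sp5 and Cdx1 were lost when any of the 4 libraries compared was left out (0.38 to 0.52, 0.27 to 0.51 and -0.51 to -0.48), and that of Axin2 without KH replicate 2 (0.29) or DNMT3ABKO replicate 1 or 2 (0.44 and 0.35). At the same time point 8 of 9 macrophage markers were lower in DNMT3ABKO cells (median -0.56; sums of 110 and 115 TPM against 165 and 161 TPM), as were 3 of 5 trophoblast markers (-0.74; 15.9 and 17.2 TPM against 47.7 and 43.9 TPM) and 2 of 18 fibroblast markers (-0.23). Among 12 ES cell markers 2 were higher and 4 lower at 72 h (-0.08), and 2 of 5 primitive endoderm (-0.22) and 1 of 6 neural markers (-0.13) were lower. At 144 h, 3 genes were lower in DNMT3ABKO cells, against 26.5% of all genes called: T by -1.31 ± 0.12, Lef1 by -0.73 ± 0.09 and Sp5 by -0.64 ± 0.12 (limma adjusted p = 2.4e-05, 0.00025 and 0.0029). Of the macrophage markers 4 of 9 were higher in DNMT3ABKO cells at 144 h (median 0.35), 4 of 5 trophoblast markers were lower (-0.90), and 3 of 18 fibroblast markers were higher and 1 lower (0.06). Among 12 ES cell markers 4 were higher and 2 lower at 144 h (-0.02), among 6 neural markers 1 was higher and 3 lower (-0.38), and 1 of 5 primitive endoderm markers was lower (0.01). Lef1 therefore lay below KH at 0 h, above it at 72 h and below it again at 144 h. With 3 genes called in the 72 h difference of responses (against 5.23% of all genes), Lef1, Axin2 and Sp5, the DNMT3ABKO response was the higher for each.

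Across the 12 libraries, which share groups and time points, the 9 genes did not all move together, as described here with no test. Axin2 went with Lef1 (Pearson r = 0.81 of log2(TPM + 1)) and Cdx1 (0.77), Tcf7 with Nkd1 (0.86) and Lef1 (0.81), and Tcf7l1 with T (0.89) and against Axin2 (-0.89). Lef1 also went with Nkd1 (0.84) and Sp5 (0.64), and Tcf7 with Ctnnb1 (0.82). Some other pairs were weak or opposed. Sp5 had r of 0.006 with Ctnnb1, 0.05 with T and -0.19 with Tcf7l1, and T had -0.67 with Lef1 and -0.66 with Axin2. Of all tested protein-coding genes, the most similar to Axin2 were Etv4 (0.99), Grhl2 (0.98) and Smyd4 (0.97), those to Lef1 were Cachd1 (0.99), Atf4 (0.98) and Insm1 (0.97), and those to Tcf7l1 were Sae1 (0.99), Mvd (0.98) and P4ha1 (0.98). Etv4, an ETS factor, had means of 61.2, 113.6 and 72.9 TPM at 0, 72 and 144 h in KH and 48.1, 120.9 and 79.7 TPM in DNMT3ABKO cells.

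The other genes of the pathway were taken from lists by role, 120 genes of which 90 were tested. From 0 to 144 h, 33 rose and 30 fell in KH cells (70.0% called, against 51.3% of all genes tested), and 27 rose and 32 fell in DNMT3ABKO cells (65.6% against 57.6%). At 72 h the numbers were 30 and 30 (66.7% against 47.8%) and 34 and 30 (71.1% against 56.0%). Over all genes 4308 rose and 3762 fell at 144 h in KH and 4944 and 4117 in DNMT3ABKO cells, and counts for each role below stand beside these same shares. No list was tested against the other genes. Of the 19 Wnt ligand genes 6 were tested, and each was lower at 144 h in both lines, with a median of -1.21 for KH and -1.24 for DNMT3ABKO cells. At 72 h 5 and 4 of them were lower and none higher. Wnt7b went from 16.2 and 19.3 TPM at 0 h to 3.56 and 3.24 TPM at 72 h and 1.00 and 1.26 TPM at 144 h in KH cells, and from 7.17 and 8.03 TPM to 0.684 and 0.569, and 0.746 and 0.841 TPM, in DNMT3ABKO cells. Wnt5a and Wnt9a fell at 144 h by 1.44 and 1.61 in KH and by 1.74 and 1.56 in DNMT3ABKO cells (log2; limma adjusted p = 4e-06, 1.3e-06, 5.8e-07 and 9.2e-07). Fibroblast markers fell alongside, 17 of 18 tested in KH and 18 of 18 in DNMT3ABKO cells at 144 h (medians of -3.87 and -3.82), and their part in the ligand values was not tested.

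Genes for ligand secretion and receptors moved both ways, with 10 of 22 higher and 8 lower at 144 h in KH cells and 9 higher and 8 lower in DNMT3ABKO cells (medians of 0.19 and 0.14). At 72 h 10 and 11 were higher and 7 and 7 lower. Porcn, the acyltransferase that lipid-modifies Wnt proteins, rose from 15.9 and 17.5 TPM at 0 h to 55.3 and 63.0 TPM at 144 h in KH, and from 17.0 and 19.1 to 66.5 and 68.0 TPM in DNMT3ABKO cells. Wls, the carrier that takes Wnt proteins to the cell surface, fell instead, by 1.91 and 2.54 (log2; limma adjusted p = 1.4e-05 and 1.1e-06). Of the receptors, Fzd5 rose by 1.14 at both 72 and 144 h in KH and by 1.22 at 72 h in DNMT3ABKO cells. In the latter it stood at 94.9 and 94.0 TPM at 144 h, against 36.0 and 39.8 TPM at 0 h. The R-spondin receptor gene Lgr5 fell by 2.25 in KH and 2.18 in DNMT3ABKO cells at 144 h (limma adjusted p = 1.4e-05 and 1.1e-05). Rspo1, which encodes an R-spondin, rose more in DNMT3ABKO cells, with differences of 0.78 and 0.70 in the 72 and 144 h responses (limma adjusted p = 0.012 and 0.014).

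Among 11 tested inhibitors, 3 rose and 5 fell at 144 h in KH and 3 rose and 3 fell in DNMT3ABKO cells (medians of 0.11 and 0.06), with 3 and 3 higher and 6 and 5 lower at 72 h. Notum, a deacylase that inactivates Wnt proteins and is itself induced by the pathway, stood at 9.38 and 9.50 TPM at 0 h and 23.6 and 22.5 TPM at 144 h in KH cells, and at 21.5 and 19.8 and then 42.8 and 45.0 TPM in DNMT3ABKO cells. At 0, 72 and 144 h Notum was higher in DNMT3ABKO cells by 1.05, 0.61 and 0.90 (limma adjusted p = 2.9e-05, 0.00055 and 2.3e-05), whereas Axin2 was lower in that line at 0 h. Sfrp1, a soluble Frizzled relative, rose by 1.09 and 1.08 at 144 h, and Dkk2 fell by 2.46 and 2.60 (limma adjusted p = 4.7e-05, 3.4e-05, 3.6e-07 and 1.2e-07).

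Of 21 cytoplasmic and membrane components, 10 were higher, 1 was lower and 10 were not called at 144 h in KH cells, and 9 were higher, 2 lower and 10 not called in DNMT3ABKO cells (medians of 0.23 and 0.16). At 72 h 7 and 10 were higher and 1 and 1 lower. Amer1, a membrane partner of Apc, rose by 0.71 and 0.93 at 144 h (limma adjusted p = 0.00085 and 0.00011). Nuclear partners split, with 4 of 15 higher and 4 lower at 144 h in KH and 2 higher and 7 lower in DNMT3ABKO cells (medians of -0.11 and -0.21), and with 1 and 3 higher and 5 and 7 lower at 72 h. The corepressor gene Tle2 fell by 0.75 and 0.68 at 144 h (limma adjusted p = 0.0028 and 0.004). Pygo2, a coactivator that binds methylated histone H3, was lower in DNMT3ABKO cells at 144 h by -0.88 (limma adjusted p = 8.5e-05), and its 144 h response differed by -0.64 (limma adjusted p = 0.014).

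**Figure D4:**
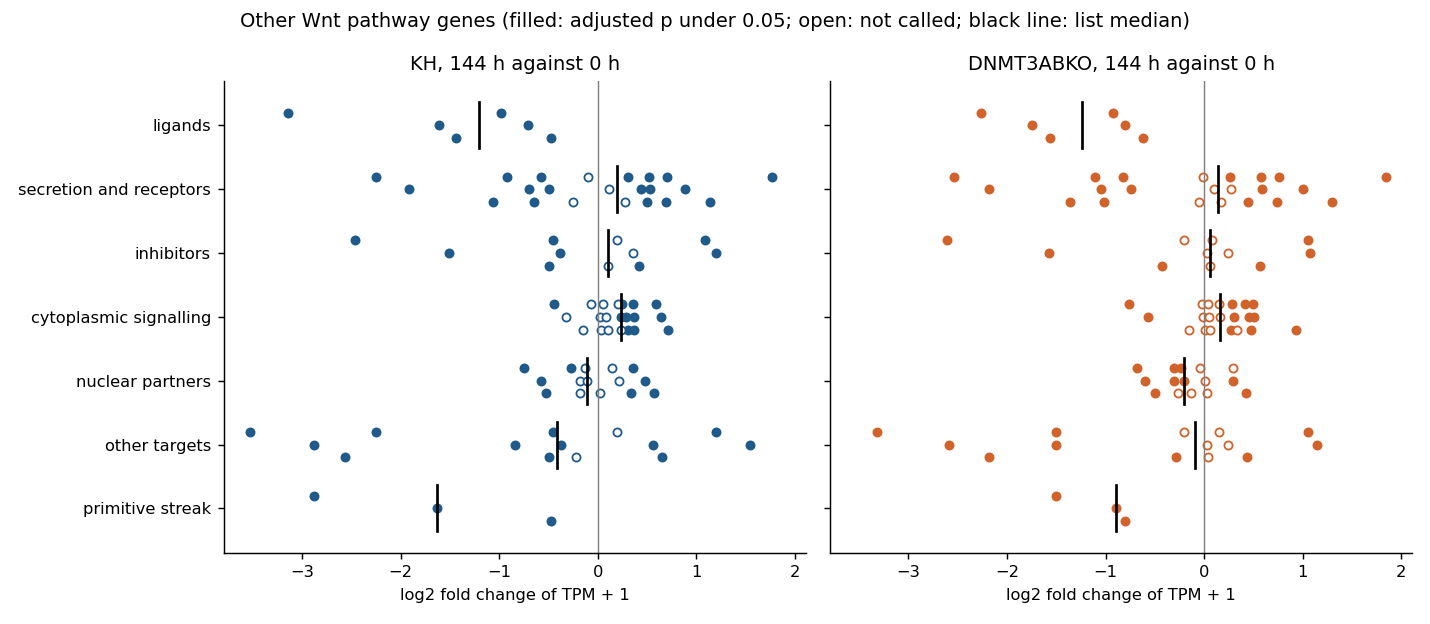
Log2 fold change of TPM + 1 from 0 to 144 h (x axes) for tested Wnt pathway genes grouped by role (rows) in KH (left) and DNMT3ABKO (right) cells; filled points passed an adjusted p under 0.05 and black lines are list medians. All 6 ligand genes lay below 0 (medians of -1.21 and -1.24), and cytoplasmic components centred at 0.23 and 0.16.

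Of 14 other tested target genes, 4 rose and 8 fell at 144 h in KH and 3 rose and 6 fell in DNMT3ABKO cells (medians of -0.41 and -0.09), with 6 and 6 higher and 8 and 6 lower at 72 h. Myc, the growth regulator, was highest at 72 h, with 49.9 and 51.0 TPM at 0 h, 122 and 117 TPM at 72 h, and 81.8 and 78.3 TPM at 144 h in KH cells, and with 38.2 and 35.4, 125 and 126, and 82.1 and 82.7 TPM in DNMT3ABKO cells. Its responses differed by 0.51 at 72 h and 0.49 at 144 h (limma adjusted p = 0.0091 and 0.007), in the same direction as those of Axin2. Cd44 and Fst, both also expressed by fibroblasts, fell by 3.53 and 2.56 in KH and by 3.31 and 2.59 in DNMT3ABKO cells at 144 h (limma adjusted p = 3e-07, 2e-08, 2.4e-07 and 1e-08). Some genes stand in more than 1 list, among them Notum, Lgr5, Fgf8 and Wnt8a.

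Of 10 other listed primitive streak genes 3 were tested, Fgf8, Eomes and Wnt8a. All 3 were lower at 144 h in both lines and at 72 h in KH cells, whereas at 72 h in DNMT3ABKO cells Fgf8 and Eomes were lower and Wnt8a was not called, at 1.96 and 1.33 TPM at 0 h and 2.20 and 2.50 TPM at 72 h. Fgf8 went from 16.4 and 13.8 TPM at 0 h to 1.07 and 0.922 TPM at 72 h in KH cells, and from 5.14 and 5.29 TPM to 0.673 and 1.65 TPM in DNMT3ABKO cells. Eomes, which was also counted among the trophoblast markers, fell by 1.63 and 0.90 at 144 h (limma adjusted p = 3.4e-06 and 0.00013). As for T, untreated DNMT3ABKO cells had less Fgf8, Eomes and Wnt8a than untreated KH cells, by -1.37, -0.87 and -0.86 on the log2 scale (limma adjusted p = 0.0024, 0.0016 and 0.0045).

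Of the 5 pluripotency genes that Tcf7l1 is known to repress, 5 were higher at 72 h and 3 at 144 h in KH cells, against 47.8% and 51.3% of all genes called in either direction. In DNMT3ABKO cells 3 were higher and 1 lower at 72 h, and 2 were higher at 144 h, against 56.0% and 57.6% of all genes. Nr0b1 rose from 56.9 and 58.6 TPM to 143 and 136 TPM at 72 h in KH, and from 61.9 and 63.9 TPM to 148 and 149.8 TPM in DNMT3ABKO cells. Nanog stood at 189 and 212 TPM at 0 h and 275 and 273 TPM at 72 h in KH cells, but at 227 and 301 TPM and then 191 and 179.8 TPM in DNMT3ABKO cells, and its 72 h responses differed by -0.95 (limma adjusted p = 0.0086). Esrrb rose by 0.77 in KH and by 0.26 in DNMT3ABKO cells at 72 h, a difference of -0.51 (limma adjusted p = 0.044). The ES cell markers as a whole, which include Nanog and Esrrb, had 9 of 12 higher and 2 lower at 72 h in DNMT3ABKO cells and 10 higher and 1 lower in KH cells.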

How the data were processed

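RNA from mouse ES cells was spiked with ERCC controls and depleted of ribosomal RNA by the authors. The submitters' processing notes name cutadapt 2.4, STAR 2.7.3a, StringTie 2.0 and mm10; the study's methods name other STAR and StringTie releases. The deposited values are TPM per gene, which the authors scaled to a fixed sum per library. TPM keeps no depth, so no counting error is given. No rows with an ERCC name were found among these values, so they were not set on a scale per cell. Repeated rows of a gene were summed.

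From these values, log2(TPM + 1) was fitted with limma (lmFit, eBayes with trend; all 12 libraries, 6 group coefficients, 11 contrasts, Benjamini-Hochberg over 15727 genes). The smallest p of an exact permutation test for 2 libraries against 2 is 0.333, so tests rest on limma. The fit was tested on simulated data. As alternatives, the pseudocount was set to 0.1 TPM, the filter was dropped (37364 genes above 0 in a library), libraries were rescaled by median ratios, the fit held only the compared groups, a replicate block within each line (and, chosen after seeing the data, across lines) or array weights were added, and each library was left out in turn.

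The members and lists were chosen with earlier results of these data known. Beside the members, at most the 4 called genes per list and contrast with the largest changes and no overlap were named, plus Tcf7l2, Dnmt3a, Dnmt3b and the 3 genes most correlated with Axin2, Lef1 and Tcf7l1. Aif1 was named with its values known. Fits were run in R 4.3.3 with limma 3.58.1, and tables and figures were made in Python 3.11.15 (pandas 2.3.3, NumPy 2.4.6, matplotlib 3.10.9).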

Additional observations from a re-analysis of the deposited data

Results flagged for a closer look

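Of the 18 differences between lines in the responses of the 9 tested genes, 4 passed a test of the difference itself (the interaction of line and time, limma). At 72 h these were Lef1 at 1.15, Axin2 at 0.84 and Sp5 at 0.77 (log2, DNMT3ABKO response minus KH response; limma adjusted p = 0.00097, 0.0074 and 0.025). At 144 h Axin2 was at 0.63 (limma adjusted p = 0.019). Among all genes tested, 5.23% were called at 72 h and 8.59% at 144 h. In all 4 of these results the DNMT3ABKO response was the higher, as in 531 of 823 genes called at 72 h and 769 of 1351 at 144 h. The Lef1 value was called under each alternative. The Axin2 call at 72 h was lost with array weights. Those of Axin2 at 144 h and Sp5 at 72 h were lost with array weights or with only the compared groups fitted. That of Sp5 was also lost with no filter. Both also depended on single libraries, as given above. Outliers within groups were not examined, since each group had 2 libraries.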

How the results depend on the processing

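Of 52 called results for single genes, 34 were kept under every alternative that was run on them, and none changed direction. Of the 588 alternative values, 495 were kept and 93 no longer passed. Of the uncalled T results, the differences between responses turned with a pseudocount of 0.1 TPM, to -0.40 at 72 h and -0.96 at 144 h. Rescaling by median ratios moved the median of all genes at most from 0.117 to -0.004 (DNMT3ABKO 72 h against 0 h) and turned no called gene.

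Counts of called genes moved by over 1.5 times as follows, and the cause was not tested. Median-ratio rescaling gave 7 for KH 144 h against 72 h. Array weights gave 5 for KH 144 h against 72 h, 7 for DNMT3ABKO 144 h against 72 h, 1 between lines at 0 h, 1 for the difference in the 72 h response and 0 for that in the 144 h response. Fitting only the compared groups gave 1 between lines at 0 h and 0 for the difference in the 144 h response, and no filter gave 3 between lines at 72 h. Leaving out each library gave 4 to 7 genes for KH 144 h against 0 h (4 without KH replicate 1 at 144 h), 2 to 5 for KH 144 h against 72 h, 1 to 5 between lines at 0 h, 2 to 7 between lines at 72 h (2 without KH replicate 2 or either DNMT3ABKO replicate at 72 h, 3 without KH replicate 1 at 72 h or any 144 h library) and 0 to 2 for the difference in the 144 h response.

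Within a line, same-numbered libraries did not deviate together (r of replicate differences -0.104 to 0.0996). Across lines r was 0.336 for KH and DNMT3ABKO cells at 0 h, -0.0641 at 72 h and 0.0391 at 144 h. It was 0.135 for KH at 0 h and DNMT3ABKO at 144 h, and under 0.1 for the other pairs. Same-numbered libraries of the lines thus deviated partly together at 0 h. The study states that matching time points of a replicate were processed in parallel. The main fit took the replicate number only as a name, so the line comparisons leave out any pairing within a time point. A block for each time point was not tested. With the replicate block within each line the counts were 5, 7 and 3 for the KH contrasts (72 h and 144 h against 0 h, 144 h against 72 h), 8, 7 and 3 for those of DNMT3ABKO cells, 3, 4 and 3 between lines at 0, 72 and 144 h, and 3 and 1 for the differences in response. A replicate block across lines, chosen after seeing the data, gave 6, 7 and 3, then 9, 7 and 4, then 3, 6 and 3, and 3 and 1, in the same order. Without depth, how far counting error limits Dkk1, Nkd1 and T after mTORi is unknown.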

Other observations

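Markers of other cell types that ES cell cultures can hold were examined beside the Wnt genes. For 144 h against 0 h, 51.3% of all genes tested were called in KH and 57.6% in DNMT3ABKO cells. Between lines the shares were 9.06% at 0 h and 26.5% at 144 h. No marker list was tested against the other genes. Of 5 tested primitive endoderm markers, 1 was higher and 3 were lower at 144 h than at 0 h in each line (median -1.12 in KH and -1.75 in the knockout), and their sums went from 109 to 120.5 TPM at 0 h to 39.6 to 54.3 TPM at 144 h. Of 6 tested neural markers, 3 were higher and 2 lower in each line (medians of 0.41 and 0.38). Of 5 tested trophoblast markers, 4 were lower in KH and 5 in DNMT3ABKO cells (medians of -1.13 and -0.90). All 3 trophoblast markers called between lines at 0 h were lower in DNMT3ABKO cells, as were the 4 called at 144 h, and the list includes Eomes. Of 9 tested macrophage markers, 9 were lower at 144 h in KH and 8 in DNMT3ABKO cells (medians of -2.65 and -2.10).

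Wnt8a, a ligand of the streak, had the largest called difference between lines of any listed pathway gene in the 72 h response, at 1.52 (log2; limma adjusted p = 0.0023). Its libraries stood at 4.22 and 3.33 TPM at 0 h, 1.16 and 1.07 TPM at 72 h, and 2.34 and 2.54 TPM at 144 h in KH cells. In DNMT3ABKO cells they stood at 1.96 and 1.33, 2.20 and 2.50, and 0.550 and 0.452 TPM. Levels in the lines thus ran in opposite order at 72 h and at the other time points. Sp8, a relative of Sp5, stood at 0.458 and 0.296 TPM at 0 h and 3.10 and 2.91 TPM at 144 h in KH cells, but at 0.347 and 0.450 and then 0.397 and 0.731 TPM in DNMT3ABKO cells, and its 144 h responses differed by -1.39 (limma adjusted p = 0.0014).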
